A study of Homo sapiens with 28 samples.

Results

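The genes described here are those whose annotated symbol is ZNF followed only by a number, the largest named group of human zinc finger genes. The arrays carried a probe set naming a single such symbol for 212 genes. Of these, 157 had a probe set brighter than its own array's median signal on 2 or more of the 28 arrays, among 8024 genes that met the same condition, and each gene was followed on its probe set of highest mean level. The members were thus chosen by their measured signals pooled over all arrays, which favours genes that were bright in at least 1 condition. Of the 157 members, 81 were above the median on all 28 arrays, 25 passed on H1299 arrays alone, 2 on A549 arrays alone, and 2 (ZNF264 and ZNF667) through a single group. The other 55 genes were not followed: 44 never exceeded the array median and 11 did so once. Just inside the limit lay ZNF264, ZNF667 and ZNF671, with highest signals of 117, 126 and 103, each on an H1299 array with azacitidine at 3 µM; ZNF10, just outside, reached 106 on 1 array of that same group.

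Most ZNF proteins bind DNA through tandem C2H2 zinc fingers, small loops held by a zinc ion that each read a few bases. Many carry an amino-terminal KRAB domain that recruits the corepressor TRIM28 and, through it, the histone methyltransferase SETDB1 and HP1 proteins, and a large part of the KRAB family silences transposable elements. Other members carry a SCAN dimerisation domain, act as activators at promoters, or, as with ZNF185 and ZNF207, have known roles outside transcription. Genes of the KRAB family lie in clusters of tandem duplicates, the densest on chromosome 19.

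The study exposed 2 human non-small cell lung cancer lines to DNA methyltransferase inhibitors for 48 h, with fresh drug every 24 h. A549, derived from a lung adenocarcinoma, and H1299, derived from a lymph node metastasis of a lung carcinoma, each received azacitidine, a cytidine analogue carrying ribose, or decitabine, its deoxyribose form, at 0.3, 1 or 3 µM, or the solvent DMSO as vehicle. Both are incorporated into DNA, where they trap DNA methyltransferases; azacitidine also enters RNA. The 14 groups held 2 arrays each, and 1 A549 array with decitabine at 3 µM (replicate 1) is labelled a repeat. Nothing in the labels says that the 2 samples of a group came from separate cultures, so every p-value below measures only the spread between these samples. Differences are given on the log2(signal + 32) scale, where 1 unit is a doubling for bright genes and less than the true change for dim ones. A gene was called higher or lower where its p-value from limma, adjusted over all 8024 genes by Benjamini-Hochberg, was under 0.05.

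Trimmed mean signals lay between 500.1 and 500.2 on every array, which shows the scaling applied before deposit, and array medians between 92.7 and 123. The keratins KRT8 and KRT18 exceeded the array median on all arrays. The fibrinogen genes and AKR1B10 summed to 15970 to 21750 in A549 and 58.9 to 126 in H1299. Most of the A549 sum was AKR1B10, at 14820 to 21410. FGA, FGB and FGG exceeded the median on 12, 12 and 10 of 14 A549 arrays and no H1299 array. CDH1 was above the median on 11 of 14 A549 arrays and no H1299 array. In H1299 the epithelial genes KRT19 and EPCAM were above it on 6 arrays each, and in A549 on 11 and 14. Summed signals of the 5 leukocyte markers with a probe set stayed between 142 and 273; PTPRC, CD3E, CD14 and LYZ never reached the median, while the globin HBB did on 13 of 14 arrays in each line. Those of 3 fibroblast markers summed to 217 to 502, with COL1A1 above the median on all 28 arrays and PDGFRB on none. Replicates of a group differed by a median of 0.10 to 0.20 log2 units over the 157 genes. The 3′ to 5′ signal ratio of the actin control, which rises as RNA is shorter, was 3.40 and 3.08 in A549 vehicle and 4.90 and 5.36 with azacitidine at 3 µM, and in H1299 4.59 and 6.05 with vehicle and 6.29 and 6.21 with that dose; counts with this ratio in the fit stand beside those at 3 µM, the mean drug difference and the comparisons of the lines.

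To show what the promoters of the most responsive members look like, the 250 bases upstream of the RefSeq start are printed for 7 genes (GRCh38.p14, each 5′ to 3′ on the gene's own strand). Capitals mark CG dinucleotides, the sites that DNA methyltransferases modify. ZNF345, ZNF22, ZNF557 and ZNF532 had large rises in H1299, ZNF467 and ZNF609 had the largest falls, and ZNF350 separated the drugs.
ZNF345 (chr19:36850626-36850875, plus strand): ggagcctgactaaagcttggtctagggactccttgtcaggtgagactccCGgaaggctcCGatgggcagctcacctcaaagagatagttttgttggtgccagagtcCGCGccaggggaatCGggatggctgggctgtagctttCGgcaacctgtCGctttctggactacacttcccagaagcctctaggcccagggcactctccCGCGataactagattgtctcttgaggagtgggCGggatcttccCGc
ZNF22 (chr10:45000673-45000922, plus strand): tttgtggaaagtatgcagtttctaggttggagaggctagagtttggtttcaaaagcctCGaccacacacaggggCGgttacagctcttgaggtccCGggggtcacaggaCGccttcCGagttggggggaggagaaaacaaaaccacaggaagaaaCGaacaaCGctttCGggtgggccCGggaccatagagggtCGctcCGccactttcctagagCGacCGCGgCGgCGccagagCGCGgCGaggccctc
ZNF557 (chr19:7069453-7069702, plus strand): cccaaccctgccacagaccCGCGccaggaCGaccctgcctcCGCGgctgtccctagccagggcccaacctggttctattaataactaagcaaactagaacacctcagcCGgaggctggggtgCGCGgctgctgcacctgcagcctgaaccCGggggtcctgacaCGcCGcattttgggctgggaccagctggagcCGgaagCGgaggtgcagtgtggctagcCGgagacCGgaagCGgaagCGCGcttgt
ZNF532 (chr18:58862674-58862923, plus strand): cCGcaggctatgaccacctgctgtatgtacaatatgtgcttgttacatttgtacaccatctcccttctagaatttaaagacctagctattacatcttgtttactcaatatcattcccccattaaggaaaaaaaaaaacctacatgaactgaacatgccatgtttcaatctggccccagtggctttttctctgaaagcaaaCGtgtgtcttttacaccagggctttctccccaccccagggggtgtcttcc
ZNF467 (chr7:149773589-149773838, minus strand): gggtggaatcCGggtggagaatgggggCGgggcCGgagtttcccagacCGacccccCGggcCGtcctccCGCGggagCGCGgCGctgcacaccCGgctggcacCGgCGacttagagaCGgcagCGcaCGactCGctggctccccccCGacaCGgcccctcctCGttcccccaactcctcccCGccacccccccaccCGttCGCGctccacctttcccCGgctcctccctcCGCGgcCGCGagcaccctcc
ZNF609 (chr15:64460328-64460577, plus strand): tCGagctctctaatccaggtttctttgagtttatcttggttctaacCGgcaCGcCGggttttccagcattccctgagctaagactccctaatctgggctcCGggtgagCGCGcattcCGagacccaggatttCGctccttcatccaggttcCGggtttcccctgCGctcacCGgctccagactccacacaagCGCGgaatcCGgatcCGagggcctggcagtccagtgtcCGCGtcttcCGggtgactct
ZNF350 (chr19:51986841-51987090, minus strand): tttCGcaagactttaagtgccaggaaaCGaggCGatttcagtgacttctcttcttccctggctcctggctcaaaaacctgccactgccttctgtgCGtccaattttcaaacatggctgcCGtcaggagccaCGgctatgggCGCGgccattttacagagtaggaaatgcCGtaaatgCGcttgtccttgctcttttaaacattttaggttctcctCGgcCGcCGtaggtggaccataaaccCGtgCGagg
The upstream stretch held 11 CG sites in ZNF345, 19 in ZNF22, 18 in ZNF557 and 15 in ZNF350, but 2 in ZNF532 around this start. ZNF467, which fell, held 30, and ZNF609 held 19. Over windows from 250 bases before to 50 after the start, 136 of the 157 members matched a RefSeq entry, with a median of 22 CG sites and a range of 2 to 55. All 15811 protein-coding promoters also had a median of 22, but 85.3% of members against 65.5% of all promoters held 15 or more. The members had passed the level filter and the set of all promoters had not. The part of the filter in this gap was not tested. Medians lay close together between responders and others: with azacitidine at 3 µM in H1299 the median was 22 over 79 members called higher and 24.5 over 56 not called, and with decitabine 21.5 over 40 and 23 over 95. DNA methylation was not measured in these files.

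More ZNF genes were higher than with vehicle in H1299 cells at each rising dose of azacitidine. At 3 µM, 90 of the 157 were higher than with vehicle and 2 were lower, while 32.2% of all genes tested were higher and 21.6% lower. Their median difference was 0.47, against 0.08 over all genes. At 1 µM, 42 were higher and 7 lower (19.9% and 15.4% of all genes), and at 0.3 µM the only calls were 3 higher members, with 2.42% of all genes higher and 3.22% lower. At 0.3 µM the total was 1 without either vehicle array and 0 by limma without replicate 1 of that dose, where 20 had an unadjusted p under 0.05. The 1 µM total was 32 without vehicle replicate 2 and 31 without replicate 2 of that dose. With the actin ratio in the fit, 86 were higher and 2 lower at 3 µM.

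**Figure D1:**
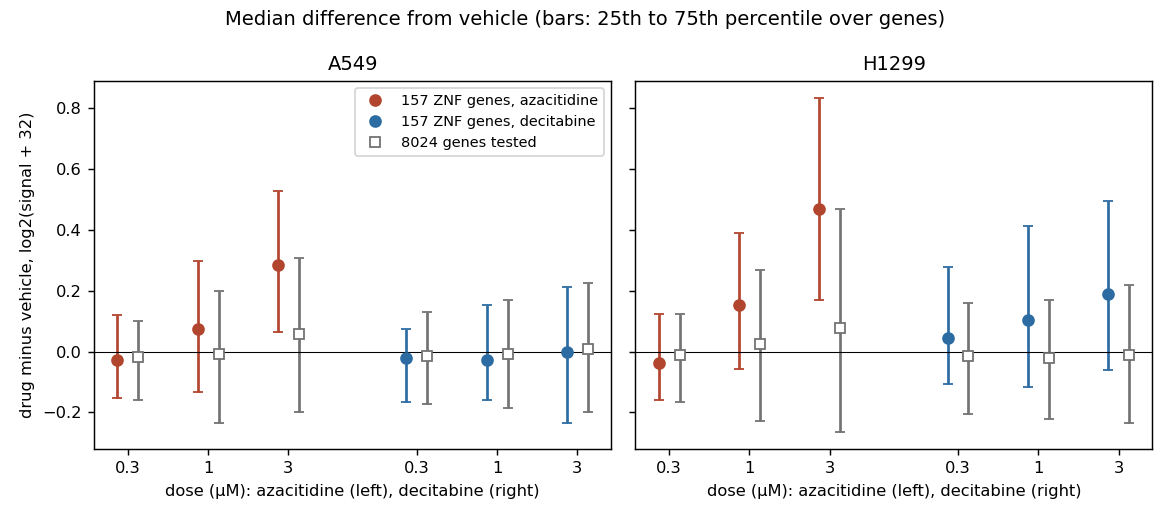
Median difference from vehicle by dose (horizontal axis, µM) on the log2(signal + 32) scale (vertical axis), for the 157 ZNF genes (filled circles) and all 8024 genes tested (open squares), with bars from the 25th to the 75th percentile over genes. In A549 the ZNF median reaches 0.28 with azacitidine at 3 µM and -0.0024 with decitabine; in H1299 it reaches 0.47 and 0.19.

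The largest rise belonged to ZNF532, known as a fusion partner of NUTM1 in NUT carcinoma. Its signals in H1299 were 20.8 and 64.2 with vehicle, 30.6 and 25.5 at 0.3 µM, 330.2 and 219.9 at 1 µM and 251 and 375 at 3 µM, a difference of 2.25 at the top dose (SE 0.22, adjusted p = 2e-08). All 4 arrays at 1 and 3 µM lay above those with vehicle, and the lowest dose overlapped it. ZNF557, a KRAB gene, went from 9.77 and 18.3 to 62.2 and 89.7 at 1 µM and 128.03 and 149 at 3 µM (1.89, SE 0.23, adjusted p = 6.9e-07); at 0.3 µM its arrays read 35.8 and 7.799 and stood on either side of vehicle.

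ZNF473 encodes ZFP100, which takes part in histone pre-mRNA processing with the U7 snRNP. Its signals were 128.3 and 131 with vehicle, 152 and 123 at 0.3 µM, 265 and 242 at 1 µM and 551 and 577 at 3 µM (1.88, SE 0.12, adjusted p = 5.8e-11). The upper doses separated from vehicle on every array; a dimmer probe set of the gene gave 0.52, which did not pass. ZNF408, a gene of inherited retinal vessel disease, rose from 53.0 and 85.6 to 348 and 285 (1.79, SE 0.34, adjusted p = 0.00012), though its arrays at 0.3 µM read 152 and 26.3 and differed from each other more than the vehicle arrays did.

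ZNF302, a KRAB gene, was among the most precisely measured: 1562 and 1653 with vehicle, 2051 and 1981 at 0.3 µM, 3289 and 2938 at 1 µM and 4467 and 4381 at 3 µM (1.44, SE 0.07, adjusted p = 1.1e-12). Each dose lay wholly above the one before it. The KRAB genes ZNF23, ZNF140 and ZNF136 rose by 1.48, 1.43 and 1.41 at 3 µM, with adjusted p of 8.7e-08, 3.5e-11 and 1.2e-08. Of these 8 rises, ZNF473 lost its call on the second probe set; the other 7 kept theirs in every alternative that could be run for them.

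The falls were ZNF467 and ZNF706. ZNF467, whose mouse counterpart steers osteoblast and adipocyte fate, read 139.5 and 164 with vehicle, 216 and 151 at 0.3 µM, 86.2 and 107 at 1 µM and 28.1 and 67.2 at 3 µM, and fell by 1.25 (SE 0.26, adjusted p = 0.00033). From the lowest dose to the highest its arrays did not overlap. ZNF706, a small protein with 1 zinc finger, fell by 0.32 (SE 0.11, adjusted p = 0.014), a call lost in 3 of 16 alternatives.

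**Figure D2:**
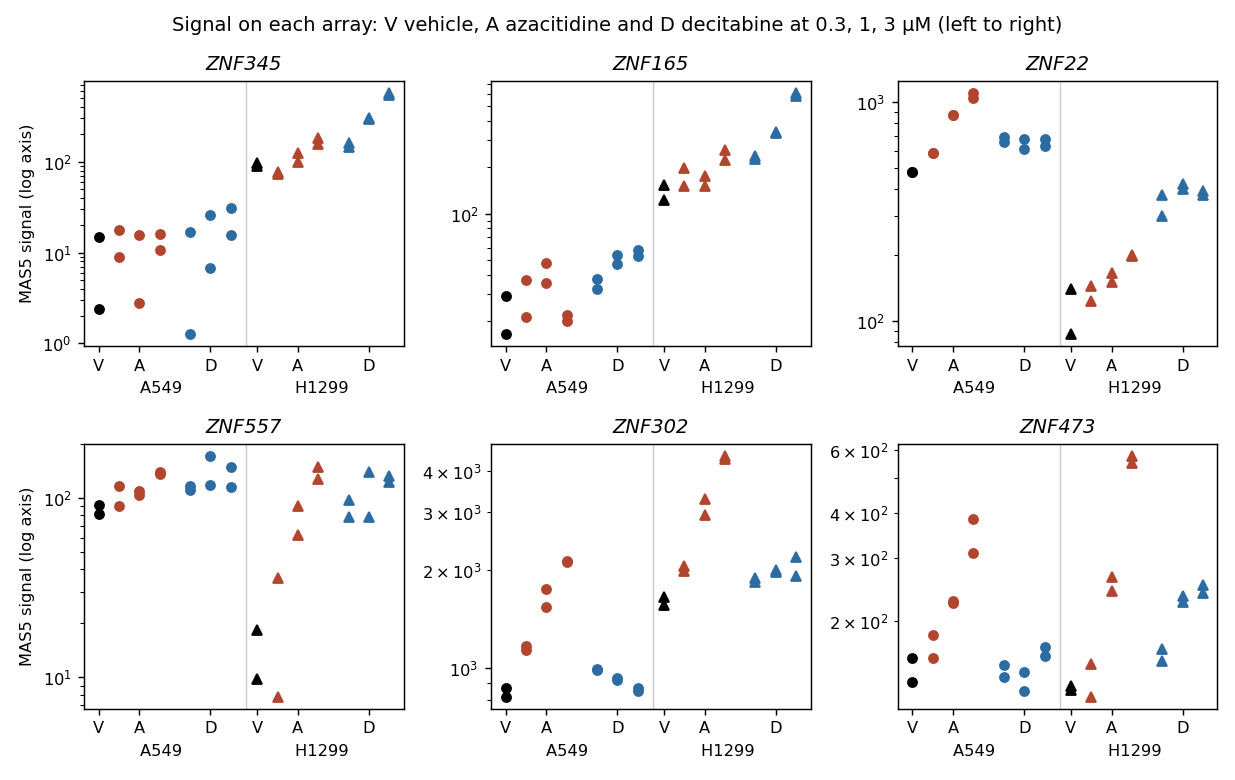
Signal of 6 ZNF genes on each array (vertical log axis, deposited MAS5 signal) in vehicle (black) and with azacitidine (red) or decitabine (blue) at 0.3, 1 and 3 µM from left to right, A549 as circles and H1299 as triangles. ZNF345 and ZNF165 climb with decitabine in H1299, ZNF302 and ZNF473 climb with azacitidine in both lines, and ZNF22 is brighter in A549 than in H1299 with vehicle.

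In A549 the same drug gave a smaller but like-directed count. At 3 µM azacitidine 57 members were higher and 3 lower, with 22.1% and 16.2% of all genes; the median difference was 0.28, against 0.06 over all genes. At 1 µM the counts were 27 and 5 (13.1% and 12.1% of all genes), or 43 and 2 with each array centred on its median, and at 0.3 µM they were 1 and 1 (1.17% and 1.26%), or 2 and 1 with either that centring or quantile normalization. With the actin ratio in the fit, 44 members were higher at 3 µM and the 3 falls were no longer called.

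ZNF239, whose product binds both DNA and RNA, rose most. Its signals were 139 and 108 with vehicle, 169 and 133 at 0.3 µM, 304 and 363 at 1 µM and 573 and 443 at 3 µM, a difference of 1.79 (SE 0.15, adjusted p = 1.6e-08). The arrays at 1 and 3 µM formed separate, rising steps. ZNF335, a component of histone methyltransferase complexes mutated in a form of microcephaly, read 106 and 57.8 with vehicle and 255 and 238 at 3 µM (1.32, SE 0.23, adjusted p = 0.00012), and its arrays at 0.3 µM overlapped vehicle. ZNF302 read 870.0 and 817 with vehicle, 1132 and 1168 at 0.3 µM, 1752 and 1540.3 at 1 µM and 2121 and 2117 at 3 µM (1.30, SE 0.07, adjusted p = 3e-11), stepwise as in H1299.

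ZNF22, a Krox-related factor of tooth development, was at 479 and 477 with vehicle and at 1098 and 1047 with 3 µM azacitidine in A549 (1.11, SE 0.13, adjusted p = 7.6e-07), and its other probe set rose too (0.79). ZNF473 rose by 1.08 and ZNF783 by 0.95, each with a further probe set called higher. ZNF215, which carries SCAN and KRAB domains and lies in the imprinted region of chromosome 11, rose by 1.19 from 12.7 and 25.02 to 95.4 and 72.7. ZNF235 rose by 0.97 with adjusted p = 0.047, and lost its call in 8 of 15 alternatives.

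The falls in A549 were small and near the threshold. ZNF428 fell by 0.54, ZNF443 by 0.29 and ZNF672 by 0.27, with adjusted p of 0.013, 0.037 and 0.026. They lost their call in 4, 6 and 6 of 15 alternatives.

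Decitabine left a smaller set of higher ZNF genes in H1299, led by other members. At 3 µM 48 were higher and 3 lower (16.3% and 14.6% of all genes), with a median of 0.19 against -0.01. Counts were 39 and 2 at 1 µM (11.7% and 11.6% of all genes) and 15 and 4 at 0.3 µM (8.84% and 8.81%). The 0.3 µM total was 8 without vehicle replicate 1 and 11 without replicate 1 of that dose. With the actin ratio in the fit 47 were higher and 3 lower at 3 µM; its values there were 4.79 and 4.41.

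ZNF345 had the largest rise. Its H1299 signals were 97.6 and 90.9 with vehicle, 144 and 159.5 at 0.3 µM, 300.1 and 297 at 1 µM and 571 and 538 at 3 µM, a difference of 2.22 (SE 0.23, adjusted p = 2.2e-07). The 4 dose levels did not overlap. ZNF345 passed the level filter only on H1299 arrays with drug, so this p-value is not independent of that filter. ZNF165, a SCAN domain gene counted among the cancer/testis antigens because its normal expression is largely testicular, read 122 and 153 with vehicle, 237 and 227 at 0.3 µM, 339 and 333 at 1 µM and 608 and 584 at 3 µM (1.90, SE 0.17, adjusted p = 1.9e-08), again without overlap.

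ZNF22 behaved differently across doses, reaching 302 and 376 at 0.3 µM from 140.0 and 87.2 with vehicle, then 399 and 422 at 1 µM and 391 and 378 at 3 µM (1.54, SE 0.13, adjusted p = 9.6e-09). The 3 doses were close to each other and all above vehicle, and the other probe set gave 1.95 at 3 µM. ZNF557 rose by 1.80 to 123 and 132, and ZNF446, with SCAN and KRAB domains, by 1.45 from 14.3 and 22.5 to 103 and 108. ZNF143, an activator that binds many promoters and chromatin loop anchors, went from 522 and 540.3 to 1062 and 857 at 1 µM and 1260.2 and 1117 at 3 µM (1.11, SE 0.12, adjusted p = 3.7e-07).

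ZNF532 and ZNF571 rose by 1.14 and 1.11. The 3 falls were ZNF395 by 0.53, ZNF839 by 0.47 and ZNF706 by 0.29, with adjusted p of 0.0031, 0.021 and 0.041. The last 2 lost their call in 4 and 8 of 16 alternatives.

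In A549, decitabine gave calls in both directions, at each dose for a smaller share of ZNF genes than of all genes. At 3 µM 16 were higher and 13 lower, 10.2% and 8.28% of members against 15% and 10.8% of all genes. The members' median of -0.0024 was close to the 0.01 of all genes. At 1 µM 6 and 3 were called (9.73% and 6.78% of all genes), and at 0.3 µM 4 and 3 (4.3% and 3.39%). At 0.3 µM the split was 7 and 3 with quantile normalization and 4 and 1 with median centring. The total there was 4 without replicate 1 of the vehicle or of the dose, and 0 by limma without replicate 2 of the dose, where 15 had an unadjusted p under 0.05; at 1 µM it was 5 without its replicate 2. At 3 µM, without replicate 1 of that dose, labelled a repeat, 6 were higher and 2 lower, and without replicate 1 of the vehicle the counts were 6 and 6. Falls outnumbered rises without replicate 2 of the vehicle (7 higher and 14 lower) and without replicate 2 of the dose (11 and 15). With the actin ratio in the fit 14 were higher and 8 lower. The vehicle's replicate 1 array had a 25th percentile of signal of 28.3, the highest of the 28, and the part of this in the calls was not tested beyond a fit with that percentile as a covariate, which called 31.

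Of the 16 rises, ZNF143 and ZNF274 kept their call in each of the 16 alternatives that could be run for them, and the others lost it in 2 or more. ZNF143 read 514 and 422 with vehicle, 636 and 666 at 0.3 µM, 852 and 750.3 at 1 µM and 905 and 918 at 3 µM (0.92, SE 0.12, adjusted p = 8.6e-06). ZNF274, a SCAN and KRAB protein that recruits SETDB1 to zinc finger genes themselves, read 673 and 678 with vehicle, 825 and 952 at 0.3 µM, 1016 and 1043 at 1 µM and 1033 and 1128 at 3 µM (0.65, SE 0.08, adjusted p = 3.6e-06). For both genes every treated array lay above both vehicle arrays.

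ZNF335 rose by 0.99, ZNF165 by 0.68, ZNF532 by 0.63, ZNF219 by 0.57, ZNF331 by 0.51 and ZNF239 by 0.45, each losing its call in 2 or more alternatives. ZNF165 stayed dim, at 16.4 and 29.1 with vehicle and 58.1 and 52.8 at 3 µM, under the array median throughout. ZNF22 rose by 0.43 on its brighter probe set, while the other read -0.09 and did not pass.

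ZNF609, a large nuclear protein that associates with the Integrator complex, had the largest fall, with 427 and 507 with vehicle, 305 and 309 at 0.3 µM, 262 and 337 at 1 µM and 235 and 222 at 3 µM. It fell by 0.93 (SE 0.15, adjusted p = 0.00012). All 6 decitabine arrays were below both vehicle arrays, but 2 other probe sets of the gene gave -0.28 and -0.05 and did not pass. ZNF146, made almost wholly of zinc fingers, kept its call in all 16 alternatives run for it, with 4191 and 3980.1 under vehicle, 3433 and 3759 at 0.3 µM, 3222 and 2906 at 1 µM and 2714 and 3006 at 3 µM, and it fell by 0.51 (SE 0.08, adjusted p = 7.8e-05). ZNF250, ZNF124, ZNF107, ZNF292, ZNF3 and ZNF576 fell by 0.68, 0.61, 0.53, 0.53, 0.52 and 0.45.

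Between 0.3 and 3 µM, 66 members differed in A549 with azacitidine, all higher at the top dose (21% of all genes higher and 13.4% lower), and 99 in H1299, 97 of them higher (33.7% and 21.8%). With decitabine 2 were higher and 4 lower at the top dose in A549 (5.72% and 3.28% of all genes), and 19 differed in H1299, all higher (5.67% and 4.26%). Without the repeat array the A549 decitabine count was 0 by limma, with 17 at an unadjusted p under 0.05, and without replicate 1 or 2 at 0.3 µM it was 1 or 2. The A549 azacitidine count was 39 without replicate 1 at 0.3 µM and also with median centring, and the H1299 decitabine count was 10 without either array at 3 µM or replicate 1 at 0.3 µM. In H1299 the steepest members were ZNF532, ZNF473 and ZNF408 with azacitidine (2.50, 1.82 and 1.74) and ZNF345, ZNF165 and ZNF143 with decitabine (1.68, 1.25 and 0.99).

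The drugs, which differ in the sugar of the nucleoside, were set against each other at each matched dose, 6 pairs in all, with p-values adjusted over genes within each pair. In A549, 1 member was higher with azacitidine at 0.3 µM (2.07% of all genes higher and 3.6% lower), 32 were higher and 8 lower at 1 µM (16.4% and 17.9%), and 65 and 7 at 3 µM (26.6% and 23.8%). In H1299 the order turned with dose, among the members as over all genes. At 0.3 µM 10 members were called, all lower with azacitidine (4.01% of all genes lower and 2.36% higher). At 1 µM 17 were higher and 18 lower, 10.8% and 11.5% of members against 18.9% and 15% of all genes. At 3 µM 68 were higher and 17 lower (33% and 23.3%). There, of 20 called members with another probe set above the level limit, 1 had another called in the opposite direction. On the mean of the 3 doses, 59 were higher and 14 lower with azacitidine in A549 (27.9% and 26.5% of all genes), and 41 and 27 in H1299 (30.8% and 23%). With the actin ratio in the fit they were 59 and 12 in A549 and 37 and 17 in H1299.

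ZNF302 stood higher with azacitidine in both lines. In A549 its signals with decitabine were 986 and 992 at 0.3 µM, 916 and 935 at 1 µM and 866 and 849.7 at 3 µM, near the 870.0 and 817 of vehicle, and the mean difference between drugs was 0.76 (SE 0.04, adjusted p = 4.6e-12). In H1299 decitabine gave 1839 and 1886 at 0.3 µM, 1993 and 1969 at 1 µM and 2189.5 and 1916 at 3 µM, a difference of 0.62 (SE 0.04, adjusted p = 1.1e-10). ZNF638, a nuclear RNA-associated protein that brings the HUSH silencing complex to unintegrated retroviral DNA, was higher with azacitidine by 0.50 in A549 and 0.50 in H1299. ZNF84, a KRAB gene, was higher by 0.47 and 0.56, with azacitidine arrays above decitabine arrays at every dose in both lines.

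Other members had the opposite order, lower with azacitidine. On the mean of the 3 doses they were 27 in H1299 and 14 in A549 (23% and 26.5% of all genes). Named in A549 were ZNF654, ZNF219, ZNF467, ZNF165, ZNF672, ZNF79, ZNF185 and ZNF200. Of these, ZNF79, ZNF467 and ZNF200 lost their call in 18, 8 and 2 alternatives. ZNF185 was higher with azacitidine in H1299. The values that follow are for H1299 unless A549 is named. The mean difference of ZNF345, azacitidine minus decitabine, was -1.18 (SE 0.13, adjusted p = 1.9e-07); its azacitidine signals were 72.5 and 77.0 at 0.3 µM, 126 and 98.8 at 1 µM and 183 and 156 at 3 µM, all below decitabine at the same dose. ZNF22 differed by -1.08 (SE 0.07, adjusted p = 1.1e-10), with azacitidine signals of 144 and 123 at 0.3 µM, 151 and 166 at 1 µM and 199.7 and 199 at 3 µM. The sign of ZNF22 was the other way in A549, at 0.31 (SE 0.07, adjusted p = 0.0015), where decitabine gave 679 and 628 at 3 µM.

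ZNF165 was also lower with azacitidine in H1299, at -0.83, and ZNF350, also called ZBRK1, a repressor that binds BRCA1, differed by -0.82 (SE 0.14, adjusted p = 5.6e-05). ZNF350 was dim in H1299, at 15.02 and 4.07 with vehicle, 47.2 and 52.9 with decitabine and 10.5 and 11.6 with azacitidine at 1 µM. ZNF573, ZNF587 and the imprinted ZNF331 were lower too, at -0.55, -0.42 and -0.53. ZNF146 differed by -0.34 in H1299 and by 0.79 in A549, where azacitidine raised it to 6459 and 6435 at 3 µM and decitabine lowered it to 2714 and 3006.

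Some members did not separate the drugs in the line given here, at this number of arrays. Each was called by limma in the other line, ZNF143 and ZNF217 in A549 and ZNF274 in H1299. For ZNF143 in H1299 the mean difference was -0.12 with a 95% interval of -0.27 to 0.02, and for ZNF274 in A549 it was 0.10 (0.0036 to 0.19), an interval not adjusted over genes; its adjusted p was 0.073 by limma. For ZNF217, an oncogene amplified at chromosome 20 in several carcinomas, the interval in H1299 was -0.19 to 0.12. These intervals leave room for differences up to their outer bounds.

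**Figure D3:**
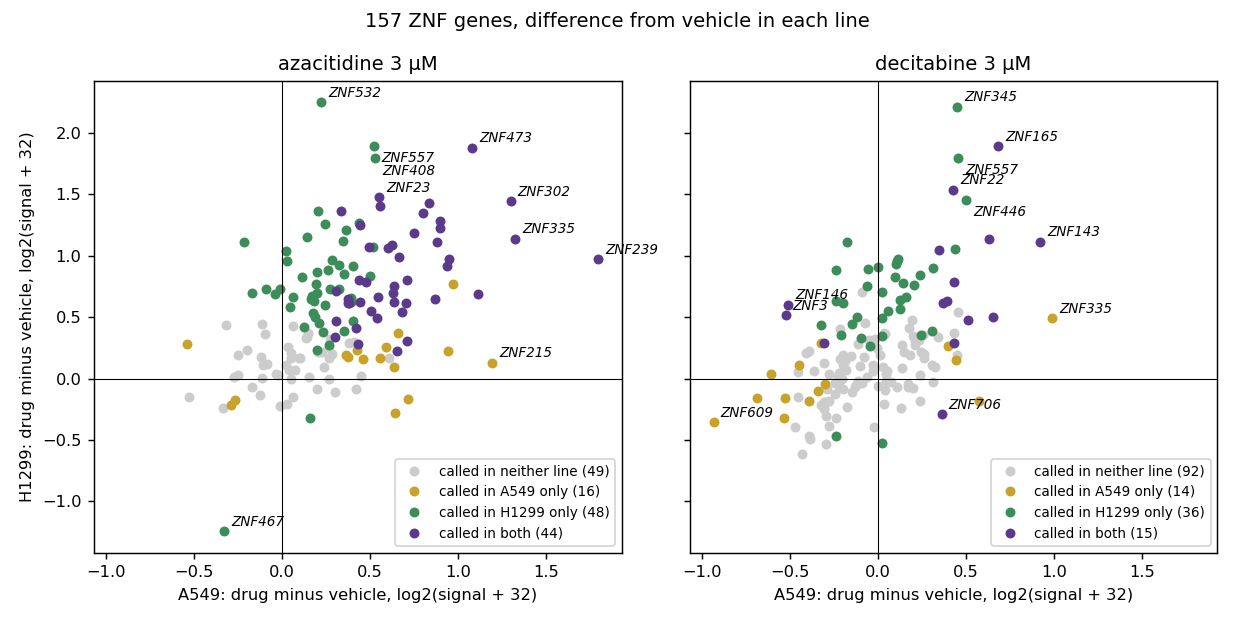
Difference from vehicle at 3 µM in A549 (horizontal) and H1299 (vertical), log2(signal + 32), for each of the 157 ZNF genes, with azacitidine at left and decitabine at right; colours give the line or lines in which the gene was called. With azacitidine most called genes lie in the upper right, while with decitabine ZNF146, ZNF3 and ZNF706 lie where the signs of the lines differ.

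The lines were compared through their own vehicle arrays, so the responses share no samples. With azacitidine at 3 µM, 44 members were higher in both lines, 77.2% of those higher in A549 and 48.9% of those higher in H1299; over all genes the shares were 67.2% and 46%. With decitabine 11 were higher in both, 68.8% of the A549 calls and 22.9% of the H1299 calls, against 38.8% and 35.7% over all genes. The 11 were ZNF22, ZNF32, ZNF143, ZNF165, ZNF222, ZNF226, ZNF274, ZNF331, ZNF432, ZNF532 and ZNF764. Decitabine also gave opposite calls for ZNF146, ZNF3 and ZNF562, lower in A549 and higher in H1299, and for ZNF706, higher in A549 and lower in H1299. Azacitidine gave 0 opposite calls among the members. Opposite calls were not counted over all genes, so whether 4 is many or few is not known.

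ZNF146 shows the opposed decitabine response on every array: in H1299 it read 5234 and 5036 with vehicle, 7126 and 6118 at 0.3 µM, 7780.3 and 6755 at 1 µM and 7783 and 7835 at 3 µM (0.60 at 3 µM, SE 0.08, adjusted p = 7e-06). No decitabine array overlapped vehicle in either line. ZNF3 differed from vehicle by -0.52 in A549 and 0.51 in H1299, and ZNF562 by -0.31 and 0.29; the latter lost its calls in 6 and 5 of 16 alternatives.

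The size of the response was tested between lines. With azacitidine at 3 µM, 34 members responded more positively in H1299 and 7 in A549 (17.4% and 13.9% of all genes), or 26 and 10 after quantile normalization. With decitabine the counts were 27 and 2 (7.85% and 9.42%). Of the members, 25 passed the level filter on H1299 arrays alone and 2 on A549 arrays alone. The response counts are therefore not independent of that filter, whose part in them was not tested. A fit with the actin ratio gave 28 and 8 with azacitidine and 23 and 1 with decitabine. The largest were ZNF532 with azacitidine (a difference of responses of 2.03, SE 0.31, adjusted p = 3.7e-05) and ZNF345 with decitabine (1.76, SE 0.32, adjusted p = 0.00068). ZNF532 was already bright in A549, at 698 and 723 with vehicle and 817 and 851 with azacitidine. ZNF345 stayed dim there, at 14.99 and 2.39 with vehicle and 15.7 and 31.3 with decitabine. ZNF345 passed the level filter on 10 H1299 arrays, all with drug, and on no A549 array. Its p-value is therefore not independent of the filter.

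With vehicle alone, 62 members were higher in H1299 and 33 in A549 (32.8% and 32.3% of all genes). Passing the level filter only through H1299 favours a higher value there. This count and the vehicle counts by run are limma calls that the filter partly fixed, so they and the levels below are read only as descriptions. A fit with the actin ratio called 55 and 26. The median was 0.18 against 0.0025 over all genes, and centring each array on its median moved the latter to 0.15. ZNF529, a KRAB gene, read 29.5 and 16.6 in A549 and 822 and 718 in H1299 (a difference of 3.87), and ZNF83 read 0.954 and 5.19 in A549 and 247 and 253 in H1299 (a difference of 3.01). Neither reached its array's median on any A549 array, whatever the drug.

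ZNF91 and ZNF93, KRAB proteins known to repress SVA and LINE-1 retroelements, also never reached the array median in A549 and did on all 14 H1299 arrays. ZNF91 read 45.4 and 27.1 in A549 and 253 and 252 in H1299 (a difference of 2.07), and ZNF93 read 80.9 and 50.5 in A549 and 196 and 192 in H1299 (a difference of 1.23). With azacitidine at 3 µM in H1299 ZNF91 reached 384 and 377 (0.53, SE 0.19, adjusted p = 0.024), a call lost in 5 of 15 alternatives, while ZNF93 reached 226 and 251 and did not pass. ZNF43, ZNF468 and ZNF492, which also passed through H1299 alone, differed by 2.09, 1.88 and 1.86.

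Several members brighter in A549 were also among the large rises in H1299. ZNF532 differed by -3.38 (H1299 minus A549), ZNF22 by -1.83, ZNF446 by -1.64 and ZNF557 by -1.37; ZNF350 and ZNF589 differed by -1.48 and -1.17. ZNF446 read 115 and 135 in A549 and 14.3 and 22.5 in H1299, and its H1299 signal of 103 and 108 with 3 µM decitabine lay below both A549 vehicle arrays. The H1299 vehicle arrays enter both comparisons, so the pairing of a low start with a rise in H1299 is not independent.

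Members were also read by their place in the genome, using RefSeq gene order. Counts at 3 µM stand beside 57.3% of all members higher with azacitidine in H1299 and 36.3% in A549. With decitabine 30.6% were higher in H1299 and 10.2% in A549. Over all genes these shares were 32.2%, 22.1%, 16.3% and 15%. With vehicle 39.5% of members were higher in H1299 and 21% lower, against 32.8% and 32.3% of all genes. Zinc finger genes with at most 2 other protein-coding genes between them were joined into runs, and 8 runs held 4 or more members, 63 of the 157 in all; 68 members lie on chromosome 19. On chromosome 12, ZNF26, ZNF84, ZNF140 and ZNF268 were all higher with azacitidine at 3 µM in A549 (median 0.82) and with decitabine in H1299 (0.66), and all but ZNF26 with azacitidine in H1299 (1.21). With decitabine in A549 none of the 4 passed in limma, 0 had an unadjusted p under 0.05, and their median was 0.03.

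On chromosome 19, the 5 neighbours ZNF146, ZNF529, ZNF345, ZNF571 and ZNF573 were all higher with decitabine at 3 µM in H1299, by 0.60, 0.61, 2.22, 1.11 and 0.89. With azacitidine 3 of them were higher, and ZNF529 read -0.15 and did not pass. ZNF529 went from 822 and 718 with vehicle to 909 and 846 at 1 µM and 1157 and 1226 at 3 µM decitabine. These 5 belong to a run of 29 zinc finger genes, of which the others are not members or not named ZNF. ZNF529, ZNF345 and ZNF571 passed the level filter on H1299 arrays alone, and ZNF345 only on those with drug. The count in this run is therefore not independent of that filter, and the neighbours were named after their values were seen.

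The 8 members of the run from ZNF101 to ZNF254, which holds ZNF91, ZNF93 and ZNF43, had few calls. None was called at 3 µM in A549 with either drug or in H1299 with decitabine, by limma, and their medians there were 0.10, -0.19 and -0.10; at an unadjusted p under 0.05 the counts were 1, 1 and 2. With azacitidine in H1299 3 of 8 were higher. With vehicle 7 of 8 were higher in H1299 than in A549 (median 1.42), and 6 of them never exceeded the array median in A549, so their A549 responses were read from dim signals.

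In the run from ZNF283 to ZNF180, 9 of 11 members were higher with azacitidine in H1299 (median 0.92), 5 with decitabine, and 6 with azacitidine in A549, and 10 were higher in H1299 with vehicle. The run of 16 from ZNF264 to ZNF446 had 10 higher with azacitidine in H1299 and 8 in A549; with vehicle 6 were lower and 1 higher in H1299. The run from ZNF577 to ZNF331 had 5 of 11 higher with azacitidine in H1299 and 2 in A549, and 2 with decitabine in H1299. In the runs of 4 from ZNF786 to ZNF862 and from ZNF251 to ZNF16, 3 each were higher with azacitidine in H1299. In A549 these had 2 and 1 higher with azacitidine. Over all 68 chromosome 19 members the median with azacitidine at 3 µM was 0.61 in H1299 and 0.34 in A549. Over the 89 elsewhere it was 0.42 and 0.27. Neighbours in a run are related by duplication and are not independent genes.

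**Figure D4:**
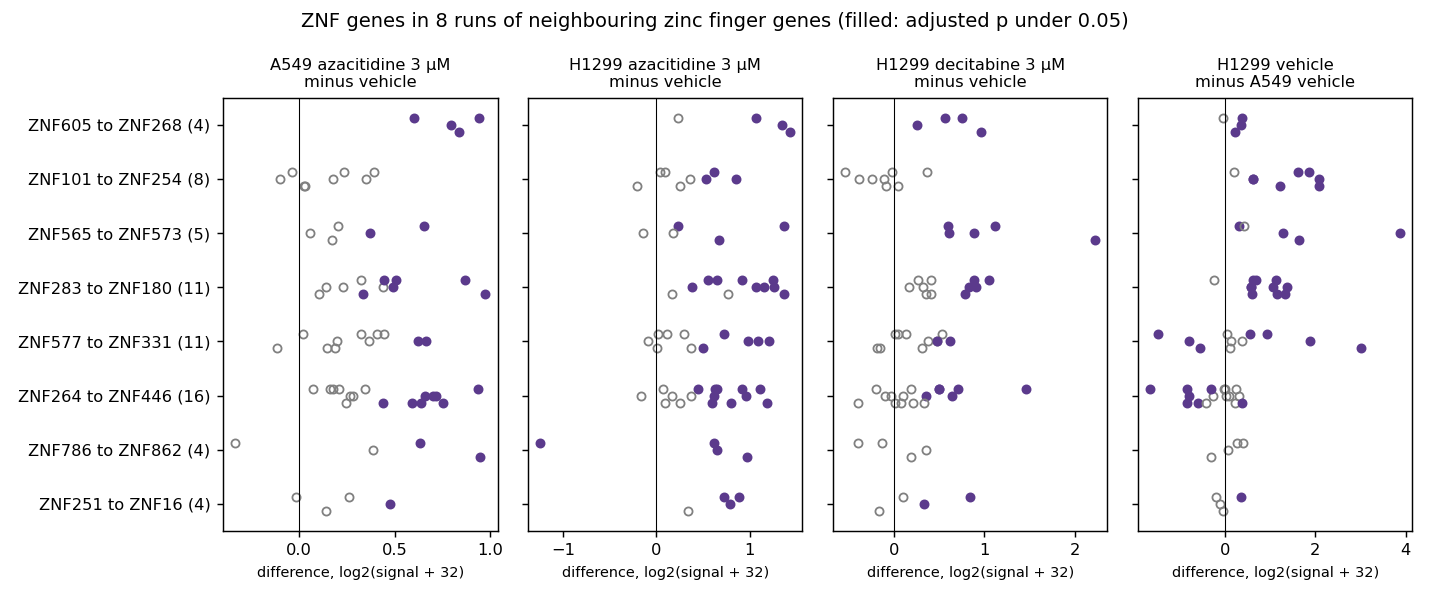
Differences on the log2(signal + 32) scale (horizontal) for the ZNF genes of 8 runs of neighbouring zinc finger genes (vertical, with the number of members), in 4 comparisons; each point is a gene, filled where called. All 5 points of the run from ZNF565 to ZNF573 are filled with decitabine in H1299, and the 8 of the run from ZNF101 to ZNF254 are open in A549. In the former run ZNF529, ZNF345 and ZNF571 passed the level filter on H1299 arrays alone.

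Some members with other known functions are given here as examples, and members were not compared by function. ZNF217 was not called at 3 µM of either drug in either line, with differences from -0.18 to 0.24. ZNF207, a spindle checkpoint protein, rose by 0.23 in H1299 with azacitidine, its one call at 3 µM, lost in 5 of 17 alternatives, and its H1299 signals of 3070.1 and 3124 with vehicle and 3653 and 3632 did not overlap. ZNF148 and ZNF281, related Krüppel-type factors, rose by 0.72 and 0.70 there, and in A549 with azacitidine ZNF148 rose by 0.31, a call lost in 5 of 17 alternatives, while ZNF281 read -0.17 and did not pass.

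ZNF185 is a LIM domain protein of the actin cytoskeleton and has no C2H2 fingers. In H1299 it read 95.004 and 99.4 with vehicle, 189 and 188 at 1 µM and 253 and 243 at 3 µM azacitidine (1.11, SE 0.12, adjusted p = 9.7e-08), and 109.7 and 102 with decitabine at 3 µM. In A549 it read 275 and 242 with vehicle and 237 and 200.02 with azacitidine, a difference of -0.22 that did not pass, and the responses of the lines differed by 1.33 (SE 0.17, adjusted p = 4.4e-06). ZNF593, a factor of ribosome biogenesis, rose by 0.47 with azacitidine and 0.67 with decitabine in H1299. ZNF274 rose in all 4 comparisons at 3 µM, from 0.50 to 0.94.

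Genes of the corepressor machinery that KRAB proteins use were called in both directions, at shares near those of all genes with azacitidine in H1299. Of 24 listed, 20 had a probe set and 19 were measured; 5 were higher and 4 lower with azacitidine at 3 µM in H1299 (all genes 32.2% and 21.6%; median -0.0018), and 1 and 6 with decitabine (16.3% and 14.6%; median -0.08). CBX5, which encodes HP1 alpha, read -1.66 and -0.54, and TRIM28, the KRAB partner itself, -0.34 with decitabine. In A549 the counts were 7 higher and 4 lower with azacitidine (all genes 22.1% and 16.2%) and 1 and 4 with decitabine (15% and 10.8%), where ATF7IP, which stabilises SETDB1, rose by 0.98 and 0.55.

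Zinc finger genes under other names were also counted, beside 32.2% of all genes higher with azacitidine at 3 µM in H1299 and 22.1% in A549, and 16.3% and 15% with decitabine. Of 14 measured genes named ZKSCAN, ZSCAN or ZFP with a number, 10 were higher in H1299 and 8 in A549 with azacitidine at 3 µM (medians 0.74 and 0.44). ZKSCAN1 rose by 1.65 in H1299 and ZFP37 by 1.13 in H1299 and 0.82 in A549. With decitabine 5 were higher in H1299, led by ZFP30 (1.19) and ZSCAN16 (1.15), and 1 in A549. Of 17 measured ZBTB genes, which pair zinc fingers with a BTB domain, 14 were higher and 1 lower with azacitidine in H1299, and 6 and 1 in A549; ZBTB18 was the one lower in both lines (-1.04 and -0.53). With decitabine 6 and 1 were called in H1299 and 2 and 1 in A549.

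Counts and medians were also read by signal level. Among the 53 members of highest mean level, 30 were higher with azacitidine at 3 µM in A549 and 36 in H1299. Among the 52 of middle level 22 and 28 were, and among the 52 of lowest level 5 and 26. Over all genes tested 22.1% and 32.2% were higher. That share was not split by level or probe set, so these counts do not tell members from other genes of like level. The medians of the bright and dim genes were 0.37 and 0.18 in A549 and 0.47 and 0.45 in H1299. Among the 26 members followed on a probe set that may cross-match other genes (suffix _x), 10 were higher in H1299 and 5 in A549. The counts were 22 and 17 among the 42 on a probe set of suffix _s, and 58 and 35 among the 89 on a gene-specific probe set. In bulk RNA, more cells expressing a gene and more RNA per cell cannot be told apart.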

How the data were processed

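Gene expression was measured on 28 one-colour Affymetrix arrays of 22277 probe sets. Per the labels' protocols, total RNA was amplified from 100 ng and biotin-labelled. The values are the intensity of each probe set, deposited by the authors as linear MAS5 signals, per the submitters' processing notes; its scaling settings and version are not given in the sources used here. The deposited table holds no detection calls, so a dim value is given as its signal. The number of arrays limits the precision.

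From these values log2(signal + 32) was computed in R 4.3.3. Probe sets naming a single gene symbol in the platform annotation (19070; 1043 named several and 2164 none) were kept where brighter than the array median on 2 or more arrays, and the one of highest mean stood for its gene, which left 8024 genes. limma 3.58.1 fitted 1 mean per group over all 28 arrays (14 residual degrees of freedom, eBayes with an intensity trend), and p-values were adjusted by Benjamini-Hochberg over all genes in each of 21 designed comparisons and 6 drug comparisons at single doses. The procedure was tested on simulated data. The members and gene lists were chosen with earlier results of these data known. Named genes are the 8 largest non-overlapping rises and falls past the threshold for each drug at 3 µM and for the drug difference (filled with overlapping called genes where fewer), 6 each between the vehicles, 5 each for the difference of responses and 4 each between doses. Genes called in both lines and a fixed list of 26 were also named, of which ZNF10, ZNF177, ZNF263, ZNF382, ZNF423 and ZNF622 were not members; neighbouring genes and opposite calls were named after their values were seen. Lists of other genes were KRAB corepressor machinery, ZKSCAN, ZSCAN and ZFP genes, and ZBTB genes. Promoter sequences and gene order came from RefSeq tables of GRCh38.p14; 13 probe sets that share a ZNF symbol with other genes were not used. Protein features of the members were not analysed here. Figures were drawn with matplotlib 3.10.9. The alternatives were quantile normalization, median centring, pseudocounts of 1 and 128, other filters, a second probe set, no trend, a fit per line, the replicate number as a block, an actin ratio covariate and leaving out arrays; a 25th percentile covariate and leaving out 3 A549 arrays were chosen after seeing the data.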

Additional observations from a re-analysis of the deposited data

Results flagged for a closer look

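The response at 3 µM differed between the lines in 17 results for named members, with ZNF557 and ZNF571 listed for both drugs. The test was of the difference itself (H1299 response minus A549 response, log2(signal + 32), limma adjusted over all genes). Of these results, ZNF408 lost its call in 12 of 18 alternatives, ZNF395 in 10, ZNF276 in 5 and ZNF215 in 4 of the same number. With decitabine ZNF345, ZNF571, ZNF165 and ZNF706 lost theirs in 1 each, and the other 9 results kept theirs.

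With azacitidine the response was more positive in H1299 for ZNF532 (2.03), ZNF557 (1.37), ZNF185 (1.33), ZNF408 (1.27) and ZNF571 (1.16), with adjusted p from 4.4e-06 to 0.047. It was more positive in A549 for ZNF215 (-1.06), ZNF276 (-0.92), ZNF544 (-0.88), ZNF239 (-0.82) and ZNF26 (-0.71), with adjusted p from 0.0001 to 0.027. ZNF215 read 12.7 and 25.02 with vehicle and 95.4 and 72.7 with azacitidine in A549, and in H1299 124 and 117 with vehicle and 139.6 and 129.98 with azacitidine.

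With decitabine the response was more positive in H1299 for ZNF345 (1.76), ZNF557 (1.34), ZNF571 (1.29), ZNF165 (1.21) and ZNF45 (1.12), with adjusted p from 5.3e-05 to 0.0074. It was more positive in A549 for ZNF706 (-0.65) and ZNF395 (-0.55), with adjusted p of 0.0043 and 0.036. ZNF345, ZNF165 and ZNF571 passed the level filter through H1299 alone, so their p-values for either drug are not independent of that filter.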

How the results depend on the processing

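Counts are members called, higher and lower together. Of 253 called results for named genes, 152 kept their call in every alternative that could be run for them, and 101 lost it in 1 or more. The sign changed in 2, both with A549 decitabine at 3 µM on the second probe set: ZNF22 read -0.086 and ZNF576 0.0087, neither past the threshold. Counts moved by over 1.5 times as follows. Median centring gave 39 in place of 66 for A549 azacitidine between 0.3 and 3 µM. A stricter filter, at the 75th percentile of each array, tests fewer members, and gave 1, 18 and 33 for azacitidine at the rising doses in A549, 25 and 44 at 1 and 3 µM in H1299, 10, 24 and 30 for decitabine in H1299, 34 and 33 for the mean drug difference in A549 and H1299, 33 and 45 for azacitidine between 0.3 and 3 µM in A549 and H1299, 39 between vehicles and 23 for the difference of azacitidine responses. For A549 azacitidine at 0.3 µM, the second probe set, the fit of A549 alone and the 25th percentile covariate each gave 1 in place of 2, and the fit of A549 alone gave 2 in place of 6 for decitabine between 0.3 and 3 µM. Leaving out 3 A549 arrays together (replicate 1 of vehicle and of 3 µM azacitidine, with the highest 25th percentiles, and the repeat array), chosen after seeing the data, gave 1 for azacitidine at 0.3 µM, 3 and 7 for decitabine at 0.3 and 3 µM, 0 by limma for decitabine between those doses (19 at an unadjusted p under 0.05), and 22 and 15 for the differences of azacitidine and decitabine responses. The cause of these shifts was not tested, beyond the fewer members or arrays named.

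Leaving out 1 array in turn gave, in A549, 1 to 2, 23 to 33 and 46 to 59 for azacitidine at the rising doses and 0 to 5, 5 to 9 and 8 to 26 for decitabine; in H1299 0 to 2, 31 to 39 and 73 to 79, and 8 to 15, 30 to 31 and 39 to 40. Between 0.3 and 3 µM the ranges were 39 to 48 and 0 to 6 in A549 and 84 to 88 and 10 to 17 in H1299 for azacitidine and decitabine. The lone array left in a group is assumed to vary like the other groups.

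Median centring moved the median of all genes by 0.13 for A549 azacitidine at 1 µM, by -0.11 and -0.11 for azacitidine between 0.3 and 3 µM in A549 and H1299, by 0.10 for A549 azacitidine at 0.3 µM and by 0.15 between vehicles. It gave 1 higher and 4 lower for A549 decitabine between 0.3 and 3 µM. Deviations of same-numbered arrays correlated at -0.24 to 0.26 over 17 comparisons, above 0.1 in 6 and below -0.1 in 1, so the numbers were not taken to pair samples. With the replicate number as a block, 63 and 32 members were called in A549 and 91 and 52 in H1299 with azacitidine and decitabine at 3 µM, and no count moved by over 1.5 times. Dim members limit what could be detected.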
